A study of Homo sapiens with 12 samples.

Results

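The 10 S100 calcium-binding protein genes described here are S100A2, S100A4, S100A6, S100A7, S100A8, S100A9, S100A10, S100A11, S100A14 and S100P. They were taken by name from a deposited table of read counts with 56269 rows, and all 10 were found. The table covers 12 RNA sequencing libraries of HCC1954, a human breast carcinoma cell line with amplified ERBB2, a receptor tyrosine kinase gene. Cultures received the treatment labelled Combination, 1 µM SNXB, 1 µM lapatinib or the solvent DMSO for 24 hours, with 3 biological repeats of each. Lapatinib inhibits the kinases encoded by EGFR and ERBB2; SNXB is a code name that the labels do not explain. All cultures are of 1 cell line grown in the same serum-containing medium.

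The count columns carry the names S13 to S24, and none of these names occurs in the labels of any sample. No column was therefore given a treatment, and no treatment was compared with another. The 12 columns are described as 12 unlabelled HCC1954 libraries, so a difference between libraries may come from a treatment, from the culture or from library preparation, and these cannot be told apart. In RNA from whole cultures, fewer cells that express a gene and less RNA per cell cannot be told apart either.

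Total counts were 9289353 to 12219397 per library. The 4 libraries S21 to S24 had a count in 20720 to 21295 rows, and the other 8 had a count in 22890 to 24681 rows. Values for the 4 libraries with fewer rows detected and for the other 8 are given where a result touches on them. No library was a copy of another: among the 66 pairs, the closest, S15 and S19, differed by a chi-square of 11.9 per degree of freedom over 9557 genes. Of the line's own markers, ERBB2 had a median of 2340 TPM (transcripts-per-million units, which scale counts by exonic length), KRT8, an epithelial keratin, had 3363 TPM and KRT19, another keratin, had 47.1 TPM. The hormone receptor genes were low, with ESR1 at 4.47 TPM and PGR at 0 counts in every library. All 9 epithelial and amplicon markers listed had a median of at least 1 CPM (counts-per-million units of the table total).

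S100 proteins are small calcium-binding proteins that pair into dimers and, on binding calcium, expose a surface that grips other proteins. Inside the cell they bind annexins, myosins and other partners of the membrane and cytoskeleton. Some, above all the S100A8 and S100A9 pair known as calprotectin, also leave the cell, where they bind zinc and manganese and act on pattern receptors as alarm signals. Most S100 genes lie side by side on chromosome 1, in and near a cluster of genes for keratinocyte differentiation, and S100A7, S100A8 and S100A9 are known for strong induction in inflamed skin.

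S100P lay on chromosome 4 at chr4:6693069-6697170 on the plus strand (GRCh38, coordinates of the deposited table), and the other 9 genes lay on chromosome 1. S100A10 at chr1:151982915-151994390 and S100A11 at chr1:152032506-152047907 were 38.1 kb apart, both on the minus strand. S100A9 at chr1:153357854-153361027 was on the plus strand and S100A8 at chr1:153390032-153391188 on the minus strand, 29 kb apart, so that their 3′ ends faced each other. Further along the chromosome, all on the minus strand, followed S100A7 at chr1:153457744-153460701, S100A6 at chr1:153534599-153536244, S100A4 at chr1:153543613-153550136, S100A2 at chr1:153561108-153567890 and S100A14 at chr1:153614255-153616986. No exon of 9 of the 10 genes overlapped an exon of another row. S100A6 shared 23 of its 971 exonic bases with BX470102.3 on the opposite strand, a row that never exceeded 2 counts.

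Promoters are shown for the genes of the pairs that moved together over the libraries, and for S100P, the gene outside the chromosome 1 cluster. Each sequence is the 60 bases before a RefSeq transcription start (GRCh38.p14), 5′ to 3′ on the gene's own strand, with TATAAA in capitals where it occurs.
S100A9 (chr1:153357794-153357853, plus strand): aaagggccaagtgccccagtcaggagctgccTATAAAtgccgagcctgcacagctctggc
S100A8 (chr1:153391074-153391133, minus strand): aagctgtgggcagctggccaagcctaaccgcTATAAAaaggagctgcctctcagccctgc
S100A7 (chr1:153460652-153460711, minus strand): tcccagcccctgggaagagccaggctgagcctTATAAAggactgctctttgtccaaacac
S100A4 (chr1:153545807-153545866, minus strand): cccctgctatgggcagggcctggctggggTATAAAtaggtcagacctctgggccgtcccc
S100P (chr4:6693818-6693877, plus strand): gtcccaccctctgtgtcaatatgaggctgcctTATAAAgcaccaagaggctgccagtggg
S100A10 (chr1:151993860-151993919, minus strand): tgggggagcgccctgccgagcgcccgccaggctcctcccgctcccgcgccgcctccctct
S100A11 (chr1:152037005-152037064, minus strand): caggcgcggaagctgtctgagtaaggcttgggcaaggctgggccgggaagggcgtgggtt
S100A6 (chr1:153535992-153536051, minus strand): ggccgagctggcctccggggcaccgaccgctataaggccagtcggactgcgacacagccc
S100A14 (chr1:153616326-153616385, minus strand): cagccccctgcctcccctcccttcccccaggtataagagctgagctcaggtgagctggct

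RefSeq lists 13 start windows for the 10 genes, 3 of them for S100A8 and 2 for S100A2. TATAAA began 31 bases before the start in S100A4, 29 in S100A8 and S100A9, and 28 in S100A7 and S100P. In windows of 250 bases searched on both strands, TATAAA was found in 5 of 10 genes and 6 of 13 windows, and in 10.8% of 34943 RefSeq promoters. The 6th window was that of a start of S100A8 further along the gene. It held the same genomic TATAAA, 126 bases before that start, so this site was counted in both windows. Of the S100A8 windows, that of the most upstream start held no TATAAA.

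Other motifs searched in the same windows were those of 3 families of transcription factors. TGANTCA, a core bound by AP-1, was found in 1 of 10 genes, S100A2, where it began 52 bases before the start, and in 6.59% of all promoters. TTCNNNGAA, bound by STAT factors, was found in 0 of 10 genes and in 6.56% of all promoters. TTNNGNAA, a loose form of the C/EBP motif, was found in 5 of 10 genes and in 33.2% of all promoters. No match overlapped a match of another motif. These are matches of letters and say nothing of binding. In each pair with an r of at least 0.7 over the 12 libraries, both genes held TATAAA or both lacked it. S100A4, S100A7, S100A8 and S100A9 held it, and S100A6, S100A10, S100A11 and S100A14 did not. This split rests on an exact match. The sequences printed for S100A6 and S100A14 hold tataag, which differs from TATAAA only in its last letter. S100P also holds it but had an r of 0.04 to S100A8 and -0.09 to S100A9. Within the 8 libraries with more rows detected, S100A4 and S100A6, of which only S100A4 holds it, had an r of 0.76. There S100A6 and S100P, of which only S100P holds it, also had an r of 0.76. A link between motif and co-variation was not tested. The guanine and cytosine content of the 250 bases was 71.2% for S100A10 and 55.6% for S100A9.

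Several of the 10 S100 transcripts were abundant in these cells. The 10 genes together took 0.153% to 0.263% of all counts (median 0.209%), or 7169 to 11993 TPM (median 9405). Of the 10, 6 were among the 1000 highest of all 56269 rows by median TPM. The 10 genes were chosen with earlier results of these data known, so their ranks do not describe the S100 family as a whole. S100A11, which binds annexins, ranked 7th of all rows with a median of 3980 TPM (2575 to 5031), and it alone made up a median of 39.4% of the members' TPM. S100A9, a subunit of calprotectin, ranked 34th with a median of 2090 TPM (1016 to 2539). These ranks rest on exonic length, which was short for both genes, at 680 bases for S100A11 and 577 for S100A9. By median CPM, which has no length term, S100A11 ranked 155th and S100A9 578th, and 5 of the 10 genes were among the 1000 highest rows.

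A middle group of 3 genes had similar levels per length. S100A10, the annexin-binding member that does not bind calcium, had a median of 1063 TPM (796 to 1752), S100A14 had 948 TPM (582 to 1364) and S100A6, also called calcyclin, had 918 TPM (680 to 1145). S100A14 was above S100A6 in only 7 of 12 libraries, so the order of these neighbours is within their spread, whereas S100A10 was above S100A14 in 11 of 12. S100A8, the other calprotectin subunit, had a median of 370 TPM (73.3 to 623). S100P had 165 TPM (92.3 to 470) and S100A2 132 TPM (84.6 to 234), each above the next gene in the order in 9 and in 12 of 12 libraries. S100A4, which binds non-muscle myosin, had 32.2 TPM (16.5 to 44.5), and S100A7, or psoriasin, had 16.4 TPM (4.02 to 40.9), the lowest level of the 10. Neighbours in the order held it in every library at 3 places: S100A11 over S100A9, S100A6 over S100A8, and S100A2 over S100A4.

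**Figure D1:**
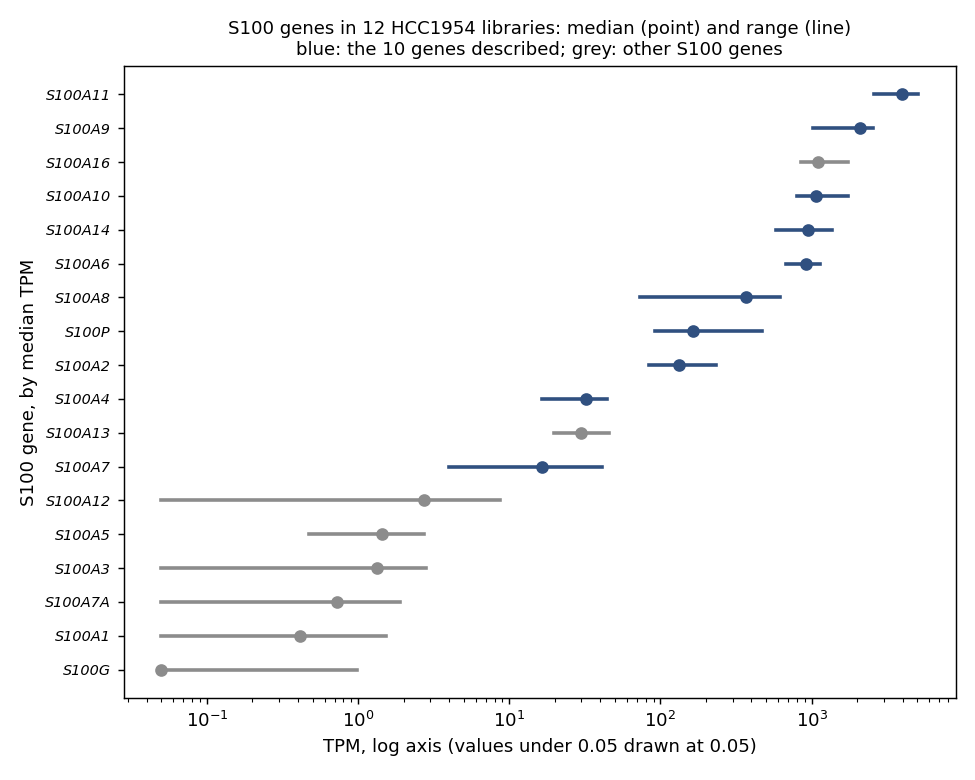
Level of each S100 gene with at least 1 count, in TPM on a log axis, with genes running down the page by median TPM; points are medians and lines the range over 12 libraries, blue for the 10 genes described and grey for other S100 genes. S100A11 lies highest at a median of 3980 TPM, S100A16 lies among the middle group at 1110 TPM, and S100A7 is the lowest of the 10 at 16.4 TPM.

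Of 11 other S100 genes in the table, S100A16 and S100A13 reached a median of 1 CPM. S100A16, a known dimer partner of S100A14, had a median of 1110 TPM and ranked 76th by TPM, and S100A13 had 29.8 TPM. S100A7L2, S100B and S100Z had 0 counts in every library. S100A12, the third granulocyte S100 gene, never exceeded 10 counts. S100A7A, a close copy of S100A7, never exceeded 24 counts; the counting set no option for reads that map to several places, so reads shared by this pair may be missing from both, and their values are uncertain.

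Transcripts of the calprotectin subunits varied in level and in their ratio to each other. S100A8 had 18.5 CPM in library S22 at the lowest, a median of 92.1 CPM and 150 CPM in library S19 at the highest. Low values fell in libraries S22, S21 and S14, at 18.5, 33.3 and 37.3 CPM, and every other library had at least 74.6 CPM. Its highest value was 8.09 times its lowest (95% interval 6.99 to 9.39, exact conditional binomial, counting error only, extremes taken as given). That ratio was larger than in 93.7% of the 14137 genes with a median of at least 1 CPM. Without library S22 it was 4.50, and within the 8 libraries with more rows detected it was 4.02.

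S100A9 had 148 CPM in library S22, a median of 288 CPM and 360 CPM in library S23, a ratio of 2.44 (95% interval 2.30 to 2.59). The same 3 libraries were lowest for both subunits, at 148, 163 and 209 CPM of S100A9 in libraries S22, S14 and S21. In TPM, S100A9 was 3.68 times S100A8 in library S20 and 13.9 times S100A8 in library S22 (median 5.79). The size of these ratios depends on exonic lengths of 577 bases for S100A9 and 1006 for S100A8. In CPM, S100A9 and S100A8 were at 311 and 147 in library S20, and at 148 and 18.5 in library S22. The subunits thus moved in the same direction, and S100A8 moved over the wider range.

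S100A7 was read from few counts, 6 to 60 per library. It had 0.530 CPM in library S14, a median of 2.14 CPM and 5.27 CPM in library S20, against a limit of 0.246 to 0.323 CPM that a count of 0 allows. The 4 libraries S14, S22, S21 and S13 were under 1 CPM, and the 3 libraries S20, S23 and S24 were near 5 CPM. The ratio of highest to lowest was 9.96, with a 95% interval from 4.26 to 28.5, and larger than in 95.1% of genes. In the 8 libraries with more rows detected the ratio was the same, and in the 4 with fewer it was 9.59.

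By table totals, the annexin-binding pair moved less than S100A7, S100A8 and S100A9. S100A10 had 295 CPM in library S20, a median of 396 CPM and 671 CPM in library S23, a ratio of 2.27 (95% interval 2.17 to 2.37). S100A11 had 424 CPM in library S18, a median of 659 CPM and 849 CPM in library S23, a ratio of 2.0 whose interval, 1.93 to 2.08, spans the 2-fold line. S100A10 was at 530 to 671 CPM in the 4 libraries with fewer rows detected and at 295 to 423 CPM in the other 8, with no overlap. It was the only 1 of the 10 genes to separate these libraries by CPM, which 14.7% of the 14137 genes did. Within the 8 libraries the ratio of S100A10 was 1.43 and that of S100A11 1.61. S100A11 had 683 to 849 CPM in the 4 libraries and 424 to 685 CPM in the other 8, which overlapped; under TMM scaling, which corrects for composition, they did not overlap, at 758 to 894 CPM in the 4 and 413 to 651 CPM in the other 8. Over all genes, the median log2 difference of the 4 from the other 8 was -0.10 by table totals and 0.06 under TMM. The part of the number of rows detected in these levels was not tested. Under TMM the ratio of S100A10 was 2.53 and that of S100A9 2.38, so S100A10 did not move less than S100A9 there.

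S100P, an S100 gene known from placenta and from carcinomas, had 29.3 CPM in library S17, a median of 51.8 CPM and 149 CPM in library S16. Library S16 stood well above the next, S15, at 93.8 CPM. The ratio was 5.10 (95% interval 4.50 to 5.80), larger than in 88.1% of genes, and 3.20 without library S16. S100A2, an S100 gene known from basal epithelial cells, was also highest in library S16, at 91.0 CPM, with a median of 50.6 CPM and a lowest value of 31.7 CPM in library S19. Its ratio of 2.87 (95% interval 2.54 to 3.24) became 1.76 without library S16, and the ratio of its second highest to its second lowest value was 1.4.

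S100A14 had 179 CPM in library S20, a median of 298 CPM and 432 CPM in library S16, a ratio of 2.42. Library S21, at 431 CPM, lay beside S16 at the top. S100A6 had the smallest ratio of the 10 over the 12 libraries, with 160 CPM in library S18, a median of 217 CPM and 276 CPM in library S16, a ratio of 1.72 (95% interval 1.62 to 1.83). Within the 8 libraries its ratio was also 1.72, above those of S100A10 and S100A11. S100A4 had 4.25 CPM in library S22, a median of 7.93 CPM and 10.9 CPM in library S15, from 47 to 125 counts per library; its ratio of 2.56 (95% interval 1.81 to 3.66) is correspondingly imprecise, and it was 1.73 within the 8 libraries.

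**Figure D2:**
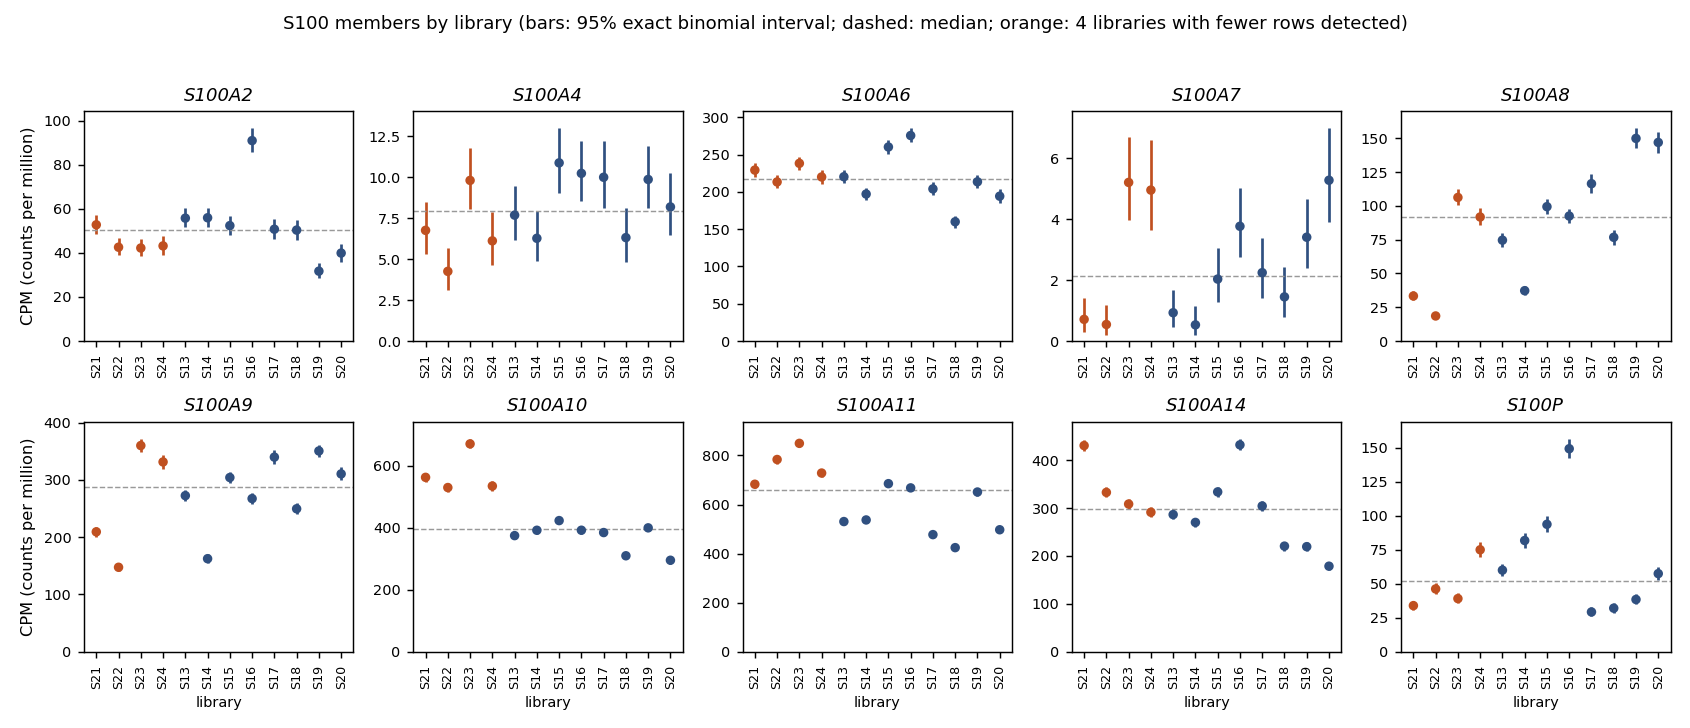
CPM of each of the 10 genes (vertical axes, each from 0) in each library (horizontal axes); points are libraries, bars are 95% exact binomial intervals for counting error, dashed lines are medians, and orange marks the 4 libraries with fewer rows detected. S100A8 and S100A9 share their 3 lowest libraries, S22, S14 and S21, S100P and S100A2 share their highest, S16, and S100A10 lies higher in the 4 orange libraries (530 to 671 CPM) than in the other 8 (295 to 423 CPM).

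Of the 10 genes, 9 differed by at least 2-fold between their highest and lowest library, as did 47.9% of the 14137 genes with a median of at least 1 CPM. Within the 8 libraries with more rows detected, 6 of 10 did so, against 31.7% of genes. The count depends on the extremes: 3 of 10 genes, S100A7, S100A8 and S100P, reached 3-fold, against 25.4% of genes, and 4 of 10 reached 2-fold between the second highest and second lowest library, against 32.2%. Single libraries decided several of the 2-fold calls: the ratio was 1.76 for S100A2 without library S16, 1.78 for S100A4 without S22, 1.91 for S100A10 without S23 and 1.97 for S100A14 without S20. For S100A11 it was under 2 without S18, at 1.78, and without S23. Ratios of low genes are widened by counting error, and among genes with a median of at least 10 CPM the 2-fold share was 29.5%, with 7 of 8 of the S100 genes at that level.

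**Figure D3:**
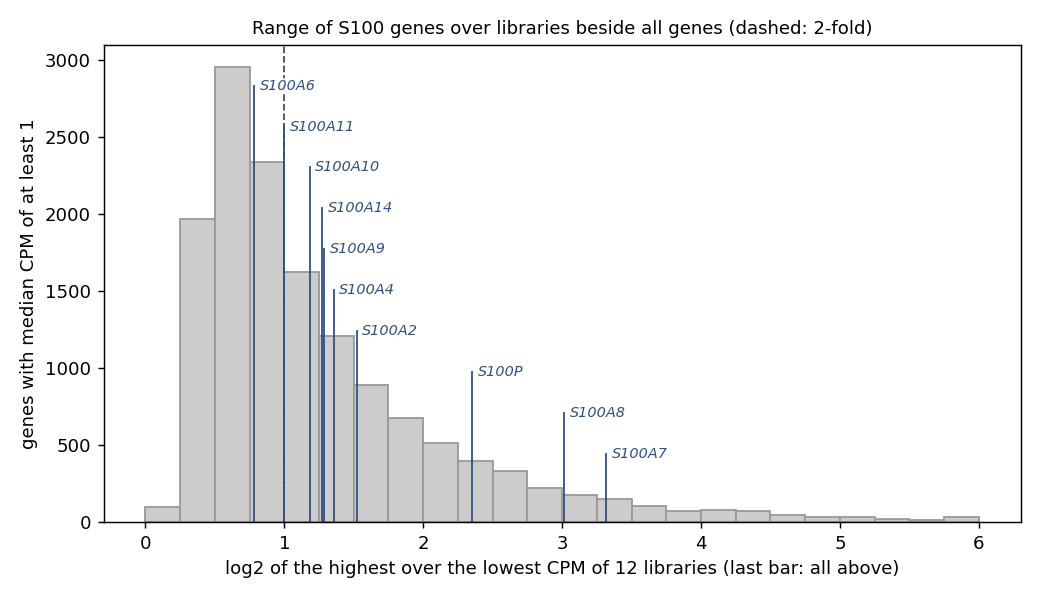
Number of genes with a median of at least 1 CPM (vertical axis) by the log2 ratio of highest to lowest CPM over 12 libraries (horizontal axis); blue lines place the 10 S100 genes and the dashed line marks 2-fold. S100A6, at a ratio of 1.72, is the only 1 left of the 2-fold line, and S100P, S100A8 and S100A7, at 5.10, 8.09 and 9.96, lie in the right tail.

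Over the 12 libraries some of the genes moved together. Co-variation was described by Pearson's r of log2(CPM + 0.5), with no p-value because the libraries come from 4 treatments and are not repeats of each other; they also share the scaling to the table total. Of 45 pairs, 8 had an r of at least 0.7, 0 had an r of -0.7 or below, and the median was 0.17. Among all pairs of 9529 genes with a median of at least 10 CPM, 8.86% had an r of at least 0.7, so such values are common in these libraries. The sets are not alike: S100A4 and S100A7, at medians of 7.93 and 2.14 CPM, lie under that level. Both are in the 8 pairs, each with S100A8 and with S100A9. In the 8 libraries with more rows detected, 12 of the 45 pairs reached 0.7, against 10.1% of all gene pairs there, and 7 pairs did so in both.

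The closest pair was S100A8 and S100A9, with an r of 0.93 over 12 libraries, a Spearman rho of 0.86, and an r of 0.95 within the 8 libraries. Leaving out the libraries farthest from the median, 2 in number, gave 0.90. S100A8 was the gene most like S100A9 among all 9528 compared, whereas S100A9 was 6th among those most like S100A8. S100A7, the next member along the chromosome, joined this pair with an r of 0.83 to S100A8 (rho 0.79, 0.88 within the 8) and 0.84 to S100A9 (rho 0.79, 0.72 within the 8). S100A4 had an r of 0.79 to S100A8 and 0.76 to S100A9, but without library S22 these were 0.62 and 0.59.

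**Figure D4:**
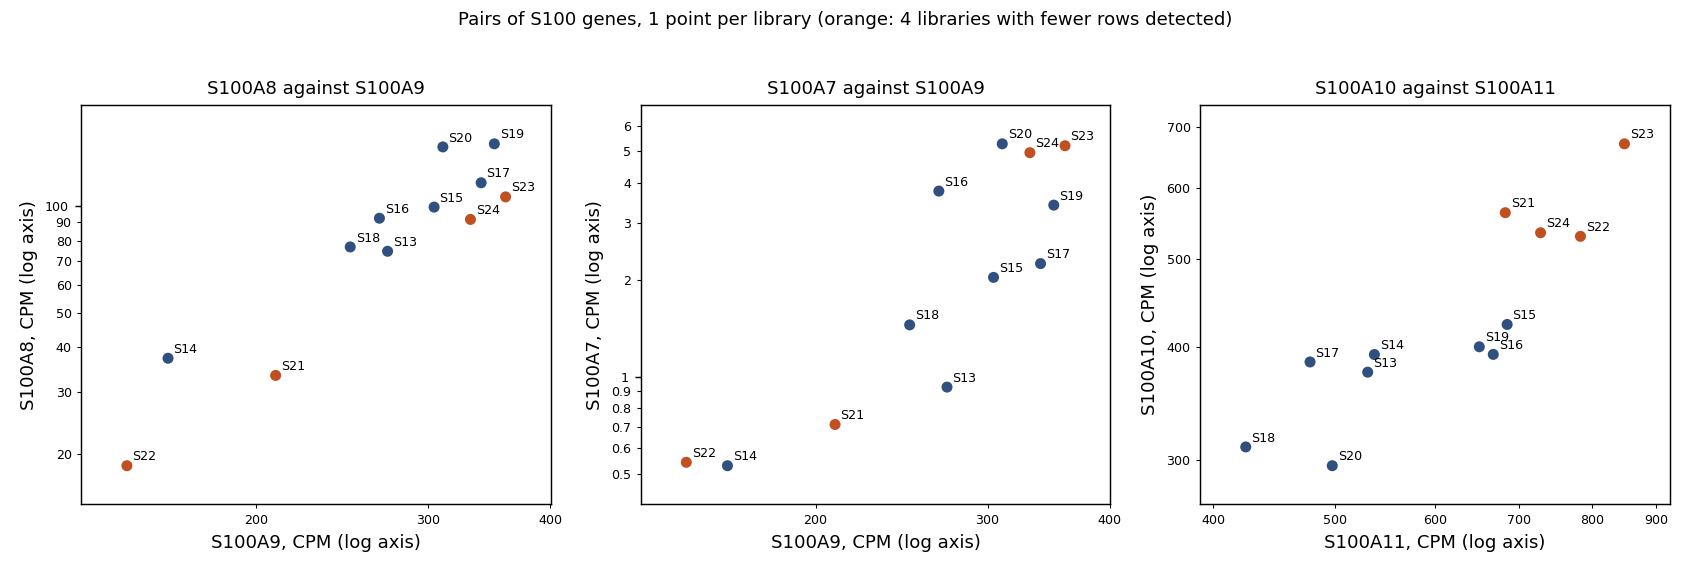
CPM of S100A8 against S100A9, S100A7 against S100A9 and S100A10 against S100A11 (both axes log), 1 point per library, with orange for the 4 libraries with fewer rows detected. S100A8 is higher where S100A9 is higher (r of 0.93 over 12 and 0.95 within the 8), while the 4 orange libraries lie above the other 8 in S100A10.

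The other chromosome 1 neighbours, S100A10 and S100A11, had an r of 0.87 (rho 0.91) over 12 libraries and 0.74 within the 8. Their TPM ratio stayed between 0.259 and 0.363 (median 0.317), a narrower band than that of the calprotectin subunits. S100A6 had an r of 0.70 to S100A11 and 0.71 to S100A14, which were 0.88 and 0.77 within the 8 libraries. The r of 0.70 to S100A11 fell under 0.7 when any of libraries S14, S18, S20, S21 or S23 was left out, to 0.54 at the lowest without S18, and that of 0.71 to S100A14 was 0.62 without library S16. Distance along the chromosome did not order these values: S100A6 and S100A4, 7.37 kb apart, had an r of 0.47, and S100A4 and S100A2, 11 kb apart, had 0.15. S100A2 had an r of 0.63 to S100A14 and 0.59 to S100P, or 0.83 and 0.67 within the 8. The lowest of the 45 values was -0.45, between S100A8 and S100A14.

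**Figure D5:**
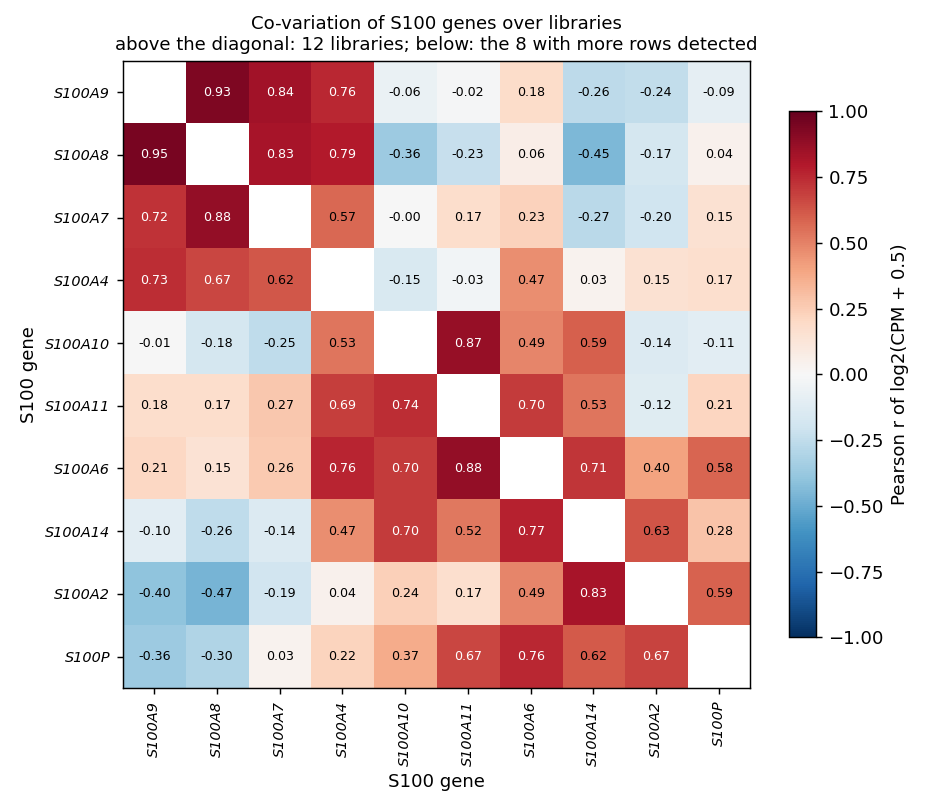
Pearson's r of log2(CPM + 0.5) for each pair of the 10 genes (rows and columns), above the diagonal over 12 libraries and below it over the 8 with more rows detected; red is positive and blue negative. S100A9, S100A8 and S100A7 had values of 0.72 to 0.95 to each other, and S100A10, S100A11, S100A6 and S100A14 had values of 0.49 to 0.88. Some pairs outside these sets had values as high: above the diagonal, S100A4 with S100A8 had 0.79 and S100A2 with S100A14 0.63. Below it, S100A2 with S100A14 had 0.83 and S100A6 with S100P 0.76.

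By TPM, annexin partners had lower levels than the S100 genes that bind them, and this order rests on exonic length. That length was 8824 bases for ANXA2, 1543 for S100A10 and 680 for S100A11. By median CPM, ANXA2 was higher, at 1716 against 396 for S100A10 and 659 for S100A11. ANXA11 had 229 CPM against 217 for S100A6, while ANXA1, at 540 CPM, stayed below S100A11. ANXA2, the annexin that S100A10 binds at the membrane, had a median of 791 TPM and an r of 0.91 to S100A10 (rho 0.94, 0.79 within the 8 libraries), and S100A10 stood at 1.25 to 1.80 times its TPM. S100A11 stood at 4.13 to 5.74 times the TPM of ANXA2 and S100A6 at 6.96 to 9.81 times that of ANXA11. For S100A11 the r to ANXA2 was 0.85 and that to ANXA1, its other known annexin partner, was 0.51, or 0.04 within the 8 libraries. AHNAK, a large scaffold protein that binds the S100A10 and ANXA2 complex, had an r of -0.53 to S100A10 over 12 libraries and 0.74 within the 8, so its sign depended on the 4 libraries with fewer rows detected. S100A6 had an r of 0.72 to ANXA11 and -0.49 to CACYBP, the calcyclin-binding protein, or 0.88 and -0.75 within the 8. All 6 listed annexins and membrane partners reached a median of 1 CPM and 3 of them a 2-fold ratio, a share near the 47.9% of all genes.

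Other intracellular binding partners had ratios of highest to lowest library under 2. CACYBP, MYH9, EZR, IQGAP1 and COPS5 all had a median of at least 10 CPM, and 0 of these 5 reached a 2-fold ratio. Among all genes at that level 29.5% did, and 5 genes are too few to be set apart from that share. CACYBP was at 1.88 and EZR at 1.84, and AHNAK, in contrast, had a ratio of 3.06. EZR, the membrane linker ezrin that S100P binds, was the highest at 640 TPM. Its r to S100P was -0.32, and that of IQGAP1, a scaffold that S100P also binds, was -0.38. MYH9, the myosin heavy chain bound by S100A4, had an r of -0.45 to it, and COPS5, which S100A7 binds, had -0.46 to S100A7.

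Of the receptors for secreted S100 proteins, BSG, which binds S100A9, was the highest, with a median of 508 TPM and an r of -0.60 to S100A9. Of 5 receptors, 3 reached a median of 1 CPM and 1 of those a 2-fold ratio, as did 47.9% of all genes at that level. ALCAM had 208 TPM and AGER, the receptor for advanced glycation end products, 6.36 TPM. TLR4, the pattern receptor for calprotectin, had a median of 0.667 TPM and CD36 one of 0.342 TPM. Both lay under 1 CPM by median and so outside the 2-fold count, but they varied, with 3 to 46 counts per library for TLR4 and 0 to 57 for CD36.

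Of 18 genes of squamous differentiation and epithelial alarm, 9 had a median of at least 1 CPM, and all 9 of these reached a 2-fold ratio, as did 47.9% of all genes at that level. LCN2, an iron-sequestering alarm protein, was the highest with 661 TPM, and its r was 0.60 to S100A8 and 0.72 to S100A9, or 0.81 and 0.77 within the 8 libraries. KRT6A, a keratin of activated keratinocytes, had 216 TPM with a 10.0-fold range, and KRT13, a keratin of stratified mucosa, had a 61.2-fold range. Of 7 genes for fused S100 proteins, which join an S100 domain to long repeats, TCHH and TCHHL1 reached a median of 1 CPM. TCHHL1 ranged over 58.3-fold, with 6 to 358 counts per library.

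The genes whose profiles were most like each member were named by r over the 12 libraries. For S100A8 they were BLVRA (0.96), CALR (0.94) and UGT1A6 (0.94), and 32 genes had an r of at least 0.9 to it. For S100A9, after S100A8, they were LYPD6 and HMGN3 (0.93 each). For S100A7 they were CCDC127 (0.93), COX6A1 (0.92) and CRIP2 (0.92). For S100A4, 52 genes reached 0.9, led by DNAJB2 (0.96), ZSCAN31 (0.95) and BAMBI (0.94). S100A10 was nearest to CH17-360D5.3 (0.96), ATF6 (0.94) and MISP (0.94), of which ATF6 had 0.65 within the 8 libraries. S100A11 was nearest to OCLN (0.94), which encodes the tight junction protein occludin, C6orf132 (0.93) and ANXA2P2 (0.93), an ANXA2 pseudogene that can share reads with ANXA2. S100A6 was nearest to GATA2 (0.95), CANT1 (0.95) and NSMCE2 (0.92), and S100A14 to GIPC1 (0.96), PACSIN3 (0.92) and DNAJB1 (0.90). S100P was nearest to WBP2 (0.95), SMCHD1 (0.92) and SNX30 (0.91). S100A2 was nearest to GPKOW (0.92), TAF15 (0.87) and SARS (0.85). Each member was compared with 9528 or 9529 genes in 12 libraries, so these names describe likeness only.

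Markers of other cells that make these proteins were mostly at or near 0. Myeloid cells are the known major source of S100A8 and S100A9; of 9 myeloid markers, only CSF1R had a median of at least 1 CPM, LYZ, MPO and TYROBP had 0 counts in every library, and the 9 summed to 0.543 to 2.49 CPM in the 4 libraries with fewer rows detected and 1.45 to 3.36 CPM in the other 8. Of 7 fibroblast markers, COL1A1 alone reached 1 CPM, COL3A1, DCN and LUM had 0 counts in every library, and the 7 summed to 6.78 to 10.6 CPM in the 4 libraries and 9.36 to 14.8 CPM in the other 8.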

How the data were processed

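RNA of 12 HCC1954 cultures was sequenced. Per the file headers, the authors made the deposited counts with featureCounts 1.4.6-p2 in paired-end mode against GENCODE 25, summed by gene name, from a command that names 24 alignments; it sets no option for strand, for reads over several genes or for multi-mapping reads. The kit was directional per the labels' protocols, so with no strand option reads of both strands entered a gene's count. The submitters' processing notes name FastQC 0.11.5, Trim Galore 0.4.5, STAR 2.4, SAMtools 1.2, Subread 1.4.6 and hg38. Rows of mitochondrially encoded genes held 0 counts in every library.

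CPM and TPM were computed from the counts with Python 3.11.15, pandas 2.3.3 and SciPy 1.17.1. Intervals (Clopper-Pearson for CPM, exact conditional binomial for ratios, 95%) and the limit of 3 counts that a count of 0 allows cover counting error only. edgeR 4.0.16 (TMM) and DESeq2 1.42.0 gave other scalings and no test, since no column has a treatment. Ranges and likeness were tested on simulated data. Promoters are RefSeq windows on GRCh38.p14; all 10 genes matched. All 10 genes are named; genes most like a member are the 3 with the highest r among genes with a median of at least 10 CPM. The genes and lists were chosen with earlier results of these data known. Alternatives were other scalings, pseudocounts, thresholds and libraries left out. One listed gene is not reported here.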

Additional observations from a re-analysis of the deposited data

How the results depend on the processing

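Of the settings tried for the count of 9 genes with a 2-fold ratio, a 3-fold threshold gave 3 and the ratio of second highest to second lowest gave 4; leaving out each library in turn gave 7 to 9. For the count of 8 pairs with an r of at least 0.7, Spearman's rho gave 5, leaving out the 2 libraries farthest from the median gave 4, and leaving out each library in turn gave 6 to 9. The 8 pairs were recomputed under 160 combinations of pair and setting: 144 stayed at 0.7 or more, 16 were under 0.7, the lowest at 0.52, and 0 changed sign. The causes of these changes were not tested. The 8 pairs were picked for an r of at least 0.7 in these same libraries. Most settings left out 1 library or changed the pseudocount, so the tally does not measure robustness. Leaving out the mitochondrial rows changed no value, since they hold 0 counts. Leaving out the 4 libraries with fewer rows detected, and each library in turn for the ratios, were chosen after seeing the data. No paired analysis was possible because the count columns carry no replicate number.

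Depth limits S100A7 and S100A4 most. Without a treatment for any column, no value here measures a response to SNXB or lapatinib.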
